A study of Mus musculus with 33 samples.

Results

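Cultures given CD1530 were compared with cultures given AGN 193109 (hereafter AGN) after 2.5 days of induction, on culture day 8.5, with 3 libraries in each condition. These 6 of the 33 libraries of the series were taken by their labels, and all 17120 genes of the deposited count table were compared. The cells were mouse embryonic stem cells derived from blastocysts that carried the ScxGFP reporter, a transgene that marks cells expressing the tendon regulator Scx with green fluorescence. They were formed into embryoid bodies with the BMP inhibitor LDN-193189. They were then brought to paraxial mesoderm (PM) by day 6 with LDN-193189 and the Wnt agonist CHIR. In the optimized version of that step the study's methods add either AGN or all-trans retinoic acid. The study found that the latter, given at that step, left almost no ScxGFP cells and that AGN gave more of them. The paper's methods do not state which ligand, if any, the PM of these libraries received. From day 6 on, both conditions received TGFβ1, the smoothened agonist SAG and FGF2. The component that differed was CD1530, which activates the gamma form of the retinoic acid receptor (the study's tendon condition), or AGN, which holds all forms of that receptor in the repressed state (the study's fibrocartilage condition). Several ScxGFP lines were used, and which line gave which library is not given in the sources used here. There was no condition without a retinoid ligand at this time, so induction by CD1530 and repression by AGN cannot be told apart. RNA came from the whole unsorted culture, in which fewer cells of a type and less RNA per cell cannot be told apart either.

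Retinoic acid enters the nucleus and binds receptors of the RAR family, which sit on DNA as dimers with RXR partners. Without ligand, or with an inverse agonist, the dimers hold corepressors and keep their targets off, and an agonist exchanges these for coactivators. The best known targets feed back on the pathway itself through receptors, binding proteins and the enzymes that degrade retinoic acid. In the embryo the same signal patterns the trunk through 3′ Hox genes, opposes FGF signaling in the tail bud and holds back the differentiation of cartilage cells.

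Genes that retinoic acid is known to induce were high in the 3 CD1530 libraries and low in the 3 AGN libraries. Rarb, a retinoic acid receptor whose promoter is a standard target of the pathway, had 23.6, 25.5 and 25.6 counts per 1000000 (CPM, with library totals adjusted by the TMM method) in CD1530 and 0.162, 0.0510 and 0.159 in AGN. Cyp26a1, which oxidizes and so clears retinoic acid, had 90.5, 92.6 and 95.6 CPM against 3.49, 4.08 and 3.71. The libraries of the conditions lay far apart for both genes, and the log2 fold changes of CD1530 over AGN were 7.49 ± 0.20 (SE) for Rarb and 4.64 ± 0.07 for Cyp26a1 (adjusted p = 2.69e-29 and 2.07e-38, edgeR quasi-likelihood test). The 150 bases before a RefSeq start of each gene are shown because both hold a direct repeat of the kind bound by these receptors. They are RefSeq sequences on GRCm38.p6, for Rarb chr14:16575477-16575626 on the minus strand and for Cyp26a1 chr19:37697658-37697807 on the plus strand, written 5′ to 3′ along the gene. Capitals mark the repeat, which in Cyp26a1 lies on the opposite strand. The Rarb start used here lies inside the span of the gene in GENCODE M21 (chr14:16430839-16819156).
Rarb: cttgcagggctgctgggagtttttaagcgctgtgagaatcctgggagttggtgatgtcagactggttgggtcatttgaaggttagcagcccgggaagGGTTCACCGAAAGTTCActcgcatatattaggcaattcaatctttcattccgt
Cyp26a1: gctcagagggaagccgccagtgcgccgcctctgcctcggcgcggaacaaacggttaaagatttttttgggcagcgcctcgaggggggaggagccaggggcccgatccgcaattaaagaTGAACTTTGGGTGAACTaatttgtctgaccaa
The search allowed half-sites that read AGGTCA (the consensus form), AGTTCA (a T in its middle), GGGTCA (with G first) or GGTTCA (with both changes), spaced by 1, 2 or 5 bases (DR1, DR2, DR5), on both strands from 250 bases before to 50 bases after the start. Of 11699 genes with a promoter in the table, 49 held any such repeat (0.419%) and 7 a DR5 (0.0598%). Genes without a promoter in the table were not searched. Among the 551 searched genes that were at least 2-fold higher in CD1530, 7 held a repeat (1.27%) and 3 a DR5 (0.544%), which were Rarb, Cyp26a1 and Prokr2, a prokineticin receptor. Of the 323 searched genes at least 2-fold lower, 1 held a repeat, a DR5 in Hbb-y, an embryonic globin. A match describes the letters of these windows and was not tested against binding.

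Over all genes, 40.0% were called at an adjusted p under 0.05, namely 20.4% as higher and 19.6% as lower in CD1530. Counts of called members in each gene list are to be read beside these shares. Most differences were small, with a median absolute log2 fold change of 0.38 among called genes. Only 7.55% of all genes were called and at least 2-fold apart, 828 higher and 464 lower, and at least 8-fold differences were still more one-sided, with 139 higher and 29 lower. The libraries of the conditions did not overlap in 51.4% of genes. Total counts were 17116084 to 20123508 in 5 libraries and 38120841 in AGN replicate 1. Without this library 5909 genes were called in place of 6845, and with it thinned to the depth of its replicates 6654 were. Replicates had Pearson correlations of log2 levels across genes of at least 0.996, and libraries of different conditions of 0.980 to 0.981. Transcripts encoded by the mitochondrial genome made up a lower share in every CD1530 library (0.743% to 0.777%) than in any AGN library (0.862% to 0.920%), and the part of this in the results was not tested.

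**Figure D1:**
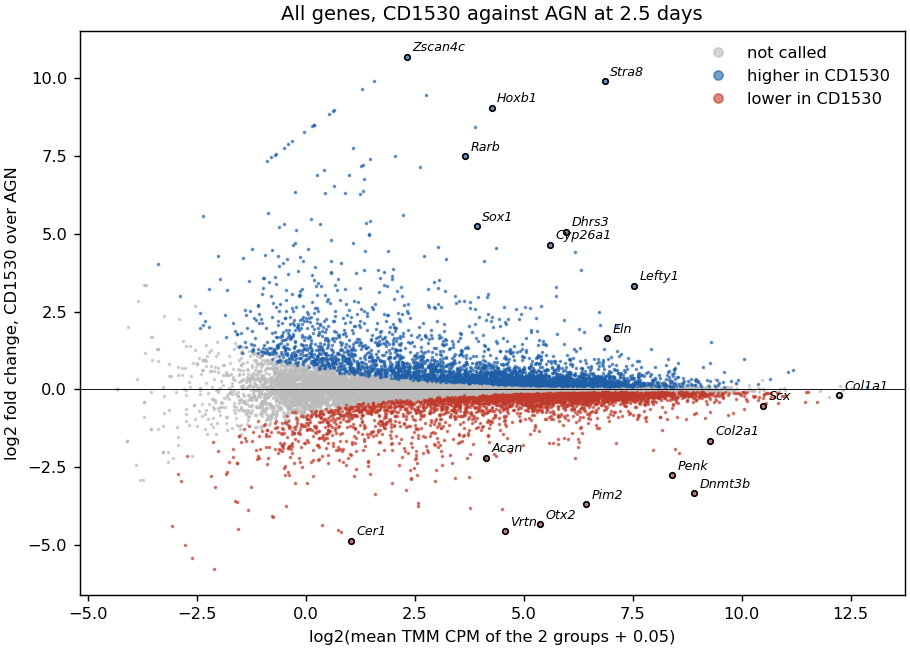
Each point is a gene, with the log2 of the mean TMM CPM of the 2 groups plus 0.05 on the x axis and the log2 fold change of CD1530 over AGN at 2.5 days on the y axis. Blue and red genes were called higher and lower, and the upper part of the plot is more populated, with 139 genes at least 8-fold higher against 29 at least 8-fold lower.

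Among the receptors, Rarb was the single gene that differed by more than 2-fold. Of the 9 receptors and coregulators, 4 were higher and 1 lower, beside 20.4% and 19.6% of all genes. Their median log2 fold change was 0.09 where the median over all genes was 0.0013. Rarg, the receptor that CD1530 binds, had 106, 112 and 111 CPM in CD1530 and 85.0, 82.9 and 87.3 in AGN (0.36 ± 0.05, adjusted p = 4.5e-08). Rara, the widely expressed receptor, differed by less (0.17 ± 0.04, adjusted p = 0.00105), and Rxra, the shared partner, was lower in CD1530 (-0.26 ± 0.05, adjusted p = 1.07e-05). Nrip1, a ligand-dependent corepressor, had 118, 114 and 111 CPM against 69.6, 65.8 and 79.9 (0.68 ± 0.11, adjusted p = 1.34e-05). The libraries of the conditions did not overlap for any of these 5 genes, which was also so for 51.4% of all genes. The corepressor Ncor1 (0.09) and the partner Rxrb (0.06) did not pass the test.

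Genes that handle retinoids were mostly higher in CD1530. Dhrs3, which reduces retinaldehyde back to retinol, had 118, 126 and 122 CPM against 3.55, 3.67 and 3.87 (5.06 ± 0.08, adjusted p = 1.17e-37). Cyp26b1 had 92.7 to 97.3 CPM against 10.2 to 13.4 (2.99 ± 0.08, adjusted p = 1.64e-26), and Cyp26c1, the third enzyme of this kind, had 3.12 to 5.14 against 0.159 to 0.406 (3.72 ± 0.32, adjusted p = 6.86e-13). Stra6, the membrane receptor for retinol-binding protein, had 132, 141 and 143 CPM against 5.47, 7.74 and 6.83 (4.42 ± 0.08, adjusted p = 3.85e-34). Crabp2, which delivers retinoic acid to the receptors, had 60.0 to 62.9 CPM against 16.1 to 17.1 (1.88 ± 0.08, adjusted p = 5.85e-23). On the synthetic side, Rdh10, which starts the conversion of retinol, had 35.1, 34.7 and 33.1 CPM against 45.2, 51.1 and 50.1 (-0.50 ± 0.06, adjusted p = 4.37e-09), and Aldh1a2, the main retinaldehyde dehydrogenase of the trunk mesoderm, was lower as well (-0.36 ± 0.10, adjusted p = 0.00237). Aldh1a3, an enzyme of the same step, went the other way (0.39 ± 0.05, adjusted p = 4.79e-09), as 87.4 to 91.2 CPM stood against 65.5 to 69.7. Crabp1, the cytoplasmic partner of retinoic acid, was slightly lower (-0.27, adjusted p = 0.00696), and Rbp4, the serum carrier, did not pass the test (0.32, adjusted p = 0.294). In all, 8 of 12 measured members were higher and 3 lower, beside 20.4% and 19.6% of all genes.

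**Figure D2:**
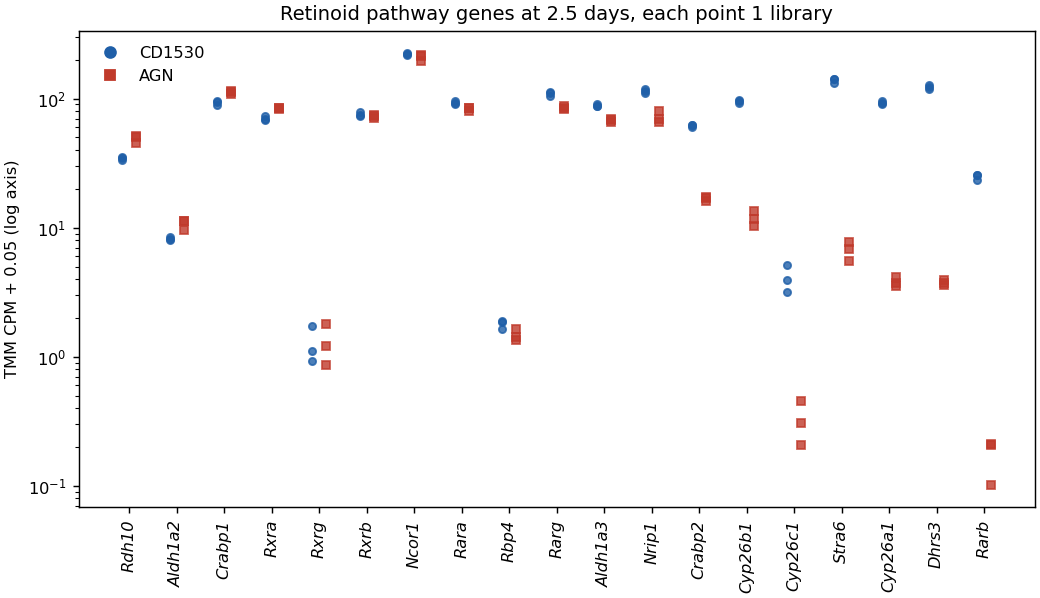
TMM CPM plus 0.05 on a log axis for retinoid genes at 2.5 days, 1 point a library, with CD1530 as blue circles and AGN as red squares, ordered by log2 fold change. The conditions separate widely from Crabp2 rightward, and at the left end Rdh10 is at 33.1 to 35.1 CPM in CD1530 and 45.2 to 51.1 in AGN.

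Genes listed as retinoid-responsive outside the pathway were nearly all higher in CD1530. The list was chosen with earlier results of these data known, so its count is a description and no independent support. Stra8, a meiotic entry gene named for its stimulation by retinoic acid, had 229.5, 227 and 236 CPM in CD1530 and 0.271, 0.357 and 0.0530 in AGN (9.88 ± 0.12, adjusted p = 2.15e-41). Csn3, the milk protein kappa-casein, had 29.3, 26.6 and 31.5 CPM against 0.162, 0 and 0 (8.41 ± 0.26, adjusted p = 3.54e-25), and 2 AGN libraries held no read of it. Cdx1, a trunk patterning factor, had 11.6, 12.6 and 11.9 CPM against 0, 0.153 and 0.159 (7.13 ± 0.25, adjusted p = 3.16e-25). Meis2, a homeobox partner of Hox proteins, had 95.5 to 98.9 CPM against 8.16 to 11.5, whereas its relative Meis1 differed by only 0.61 on the log2 scale. Rec8, a meiotic cohesin, Tgm2, a transglutaminase, and Arg1, an arginase, had log2 fold changes of 2.66, 2.11 and 3.05. The COUP factors split, with Nr2f1 higher (0.70 ± 0.10, adjusted p = 1.05e-07) and Nr2f2 lower (-0.30 ± 0.05, adjusted p = 3.6e-06). In all, 11 of 12 such genes were higher and 1 lower, beside the 20.4% of all genes that were higher.

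Hox genes, which encode position along the body axis, were higher in CD1530 more often than lower. Of 38 measured, 24 were higher and 4 lower. In paralogue groups 1 to 8, on the 3′ side of the clusters, 19 of 22 genes were higher and none lower, with a median log2 fold change of 1.45. In groups 9 to 13, 5 of 16 were higher and 4 were lower (median 0.17), beside 20.4% and 19.6% of all genes. These 5 were all Hoxb or Hoxc genes, so place and cluster are not separated here. The division by group number was made after the values were seen and was not tested. Hoxb1, which patterns the hindbrain, had 38.9, 37.5 and 38.4 CPM in CD1530 and 0, 0.153 and 0.106 in AGN (9.04 ± 0.24, adjusted p = 1.78e-29). Hoxd1 did not pass the test (0.45 ± 0.23). Further along, Hoxc4 (3.53 ± 0.15, adjusted p = 1.09e-22), Hoxc5 (3.22), Hoxb6 (2.99) and Hoxb8 (2.96) had the largest differences, and Hoxa5 had 58.2 to 63.2 CPM against 8.83 to 10.96. The Hoxd cluster gave no gene that was higher. Hoxd10 (-0.47), Hoxd11 (-0.44) and Hoxd12 (-1.18) were lower together with Hoxa13 (-1.24 ± 0.30, adjusted p = 0.000768), all at levels under 4 CPM in every library. The calls of Hoxd10, Hoxd11 and Hoxd12 were each lost when some single libraries were left out, AGN replicate 1 among them for Hoxd11 and Hoxd12, while that of Hoxa13 held in every fit. Antisense transcripts overlap genes of these clusters, and whether reads were counted by strand is not given in the sources used here.

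**Figure D3:**
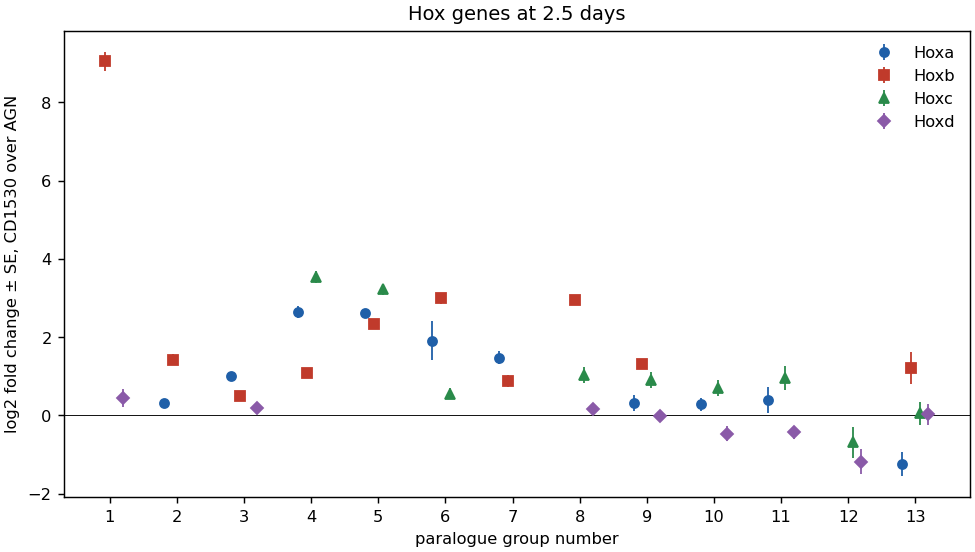
Log2 fold change of CD1530 over AGN at 2.5 days with its SE as bars for 37 Hox genes, by paralogue group number on the x axis and by cluster as color and shape. Hoxb1 (9.04) lies at the top left, groups 4 to 8 mostly lie between 0.5 and 3.5, and the 8 Hoxd genes lie between -1.18 and 0.45.

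Most cartilage matrix genes were lower in CD1530. Of 20 measured, 16 were lower in CD1530 and 1 higher, where 19.6% of all genes were lower, and the median log2 fold change was -1.45 (-1.57 with genes near the counting floor set at their bound). Col2a1, the main collagen of cartilage, had 289.9, 303 and 307 CPM in CD1530 and 948, 913 and 946 in AGN (-1.64 ± 0.04, adjusted p = 8.64e-30). Acan, the large aggregating proteoglycan, had 5.92, 6.01 and 7.07 CPM against 28.7, 29.4 and 28.8 (-2.19 ± 0.09, adjusted p = 2.1e-22). The 3 libraries of each condition were close together and the conditions did not overlap, as in 51.4% of all genes. Fmod, a leucine-rich proteoglycan that cartilage shares with tendon, had 145, 147 and 148 CPM against 598, 612 and 611 (-2.05 ± 0.06, adjusted p = 1.24e-22).

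The type IX collagen chains, which decorate type II fibrils, were all lower, with log2 fold changes of -0.95 for Col9a1, -1.15 for Col9a2 and -2.20 for Col9a3. Matn4, a matrilin adaptor protein, had 7.34 to 7.87 CPM against 32.3 to 34.3 (-2.13), and Hapln1, the link protein that fixes aggrecan to hyaluronan, had 2.00 to 2.85 against 8.50 to 9.78 (-1.96). Chad, a cell-binding matrix protein, had 3.77 to 6.33 CPM against 21.0 to 22.8 (-2.08). Clec3a, a cartilage lectin, was near the bottom of the scale in CD1530 (0.112, 0.106 and 0.177 CPM) and at 2.55, 4.03 and 3.28 in AGN. No CD1530 library held a read of Cnmd (chondromodulin), while AGN had 24 reads over its 3 libraries, which makes it at least 5.69-fold lower in CD1530. A few members differed from the rest. Col11a1, which nucleates the same fibrils, had 216 to 225 CPM against 223 to 230.4 and did not pass the test (-0.04 ± 0.05, adjusted p = 0.558). Comp, common to tendon and cartilage, also did not (0.21, adjusted p = 0.676), and Col10a1, the collagen of hypertrophic cartilage, was higher at low level, with 0.726, 0.692 and 0.884 CPM against 0.379, 0.255 and 0.212 (1.32 ± 0.41, adjusted p = 0.00822).

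Regulators of cartilage were also lower more often than higher. Sox9, the master factor of chondrogenesis, had 76.2, 79.1 and 77.2 CPM in CD1530 and 118, 107 and 117 in AGN (-0.56 ± 0.05, adjusted p = 1.25e-12). Its partners Sox5 (-0.78 ± 0.11, adjusted p = 2.69e-07) and Sox6 (-1.17 ± 0.10, adjusted p = 8.32e-13) were lower too. Nkx3-2, a repressor that promotes cartilage formation in the sclerotome, had 3.57, 3.62 and 3.24 CPM against 11.4, 11.9 and 12.4 (-1.77 ± 0.14, adjusted p = 2.94e-14). Trps1 and Runx2, factors of growth plate and bone, were lower (log2 fold changes -0.66 and -0.46), and Runx1, active in early chondrogenic mesenchyme, was higher (0.33). Barx2, a homeobox gene of condensing mesenchyme, had 1.76 to 2.42 CPM against 0.611 to 0.677 (1.66). Of 12 regulators, 7 were lower and 2 higher, beside 19.6% and 20.4% of all genes.

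Tendon genes were also lower more often than higher in the study's tendon condition. Of 11 measured, 7 were lower in CD1530 and 3 higher (median -0.46), beside 19.6% and 20.4% of all genes. Scx, the factor that defines tendon progenitors, was abundant in both conditions, with 1171, 1199 and 1190.4 CPM in CD1530 and 1716, 1720.4 and 1667 in AGN (-0.52 ± 0.04, adjusted p = 9.44e-15), and the ranges did not meet. Whether reads of the reporter transgene were counted for Scx is not given in the sources used here. Tnmd, the marker of differentiated tendon, was low in every library, at 1.62, 1.97 and 2.77 CPM against 3.85, 5.20 and 4.82 (-1.11 ± 0.23, adjusted p = 0.000111). Thbs4, a thrombospondin of tendon and its attachments, had 102, 99.97 and 106 CPM against 385, 396 and 401 (-1.94 ± 0.05, adjusted p = 4.15e-28), and Thbs2 was lower as well (-0.96 ± 0.07, adjusted p = 2.76e-11). Egr1, a mechanosensitive factor upstream of tendon collagen, had 72.2 to 75.8 CPM against 99.4 to 104 (-0.46 ± 0.05, adjusted p = 1.02e-09). Among the members higher in CD1530 were Mkx, the homeobox factor of tendon maturation (23.2, 23.5 and 21.4 CPM against 14.4, 17.2 and 17.8, 0.48 ± 0.09, adjusted p = 5e-05) and Eya2 (1.01 ± 0.15, adjusted p = 3.67e-07). Eya1 of the same network was lower (-0.91 ± 0.08, adjusted p = 3.54e-12).

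Fibrous matrix genes were divided. Of 25, 6 were higher and 13 lower, beside 20.4% and 19.6% of all genes. Eln, the elastin of stretchable tissue, had 182, 179 and 184 CPM in CD1530 and 56.3, 60.9 and 57.7 in AGN (1.64 ± 0.05, adjusted p = 1.36e-27). Dcn, the proteoglycan decorin that spaces collagen fibrils, had 423, 423 and 411 CPM against 212, 221 and 211 (0.97 ± 0.05, adjusted p = 1.51e-17). Lox, which crosslinks collagen and elastin, and Tnc, a matrix glycoprotein of tendon, were higher by 0.56 and 0.34, the latter call being lost without AGN replicate 2 (adjusted p = 0.0529). In the other direction, Tgfbi, a TGFβ-induced adhesion protein, had 379.7, 411 and 400.0 CPM against 744, 760.5 and 744 (-0.92 ± 0.03, adjusted p = 5.11e-25). Postn (-0.83), Bgn (-0.61), Col3a1 (-0.41), Col1a2 (-0.39) and Lum (-0.38) were also lower. Col1a1, the chief collagen of tendon, had 4321, 4573 and 4539 CPM against 5240.2, 4819 and 5143, ranges that did not overlap but a difference that missed the threshold (-0.18 ± 0.10, adjusted p = 0.159). In a fit of these 6 libraries alone it passed (adjusted p = 1.11e-06).

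**Figure D4:**
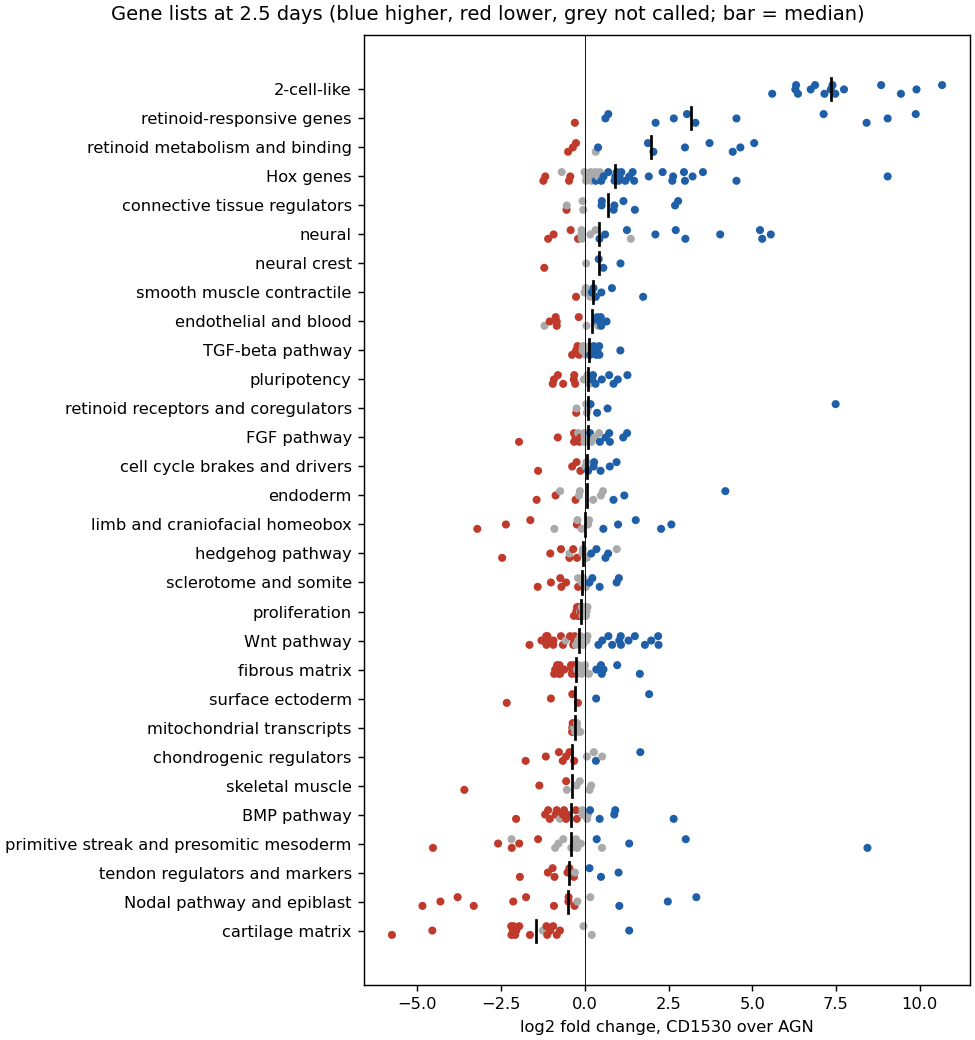
Log2 fold changes of CD1530 over AGN at 2.5 days for the members of the 30 gene lists, 1 point a gene, ordered by the list median (black bar), with called genes in blue (higher) or red (lower), as fitted, which is no bound for genes without reads in a condition. The 2-cell-like and retinoid-responsive lists lie farthest right and the cartilage matrix list, with a median of -1.45, lies at the bottom.

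The Nodal genes were called in both directions, and both conditions had received TGFβ1. Lefty1, a secreted Nodal antagonist that Nodal itself induces, had 331, 335 and 348 CPM in CD1530 and 33.7, 35.1 and 32.0 in AGN (3.33 ± 0.05, adjusted p = 7.77e-39). Lefty2 had 179.9, 176 and 186 CPM against 31.4, 32.97 and 33.2 (2.48 ± 0.04, adjusted p = 4.47e-36), and the ligand Nodal had 44.3, 42.1 and 43.1 against 21.2, 20.6 and 21.7 (1.03 ± 0.06, adjusted p = 2.43e-18). The libraries of the conditions did not overlap for any of these 3 genes, which was also so for 51.4% of all genes. The coreceptor Tdgf1 (-0.49 ± 0.04, adjusted p = 1.03e-14) and the nuclear effector Foxh1 (-0.49 ± 0.07, adjusted p = 1.21e-07) were lower. So was Cer1, another Nodal antagonist, at 0.112, 0.266 and 0 CPM against 4.20, 3.46 and 3.97 (-4.85 ± 0.31, adjusted p = 1.27e-16). Pluripotent cells express this branch as well, and 15 of 18 pluripotency genes were called in one direction or the other, beside 40.0% of all genes. The part of such cells in this was not tested.

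Other genes of the TGFβ pathway differed by less. Of 17 genes, 8 were higher and 4 lower, beside 20.4% and 19.6% of all genes. A single one differed 2-fold: Tgfb2, a ligand, had 53.8, 57.1 and 54.5 CPM against 26.6, 26.2 and 26.6 (1.06 ± 0.05, adjusted p = 8.66e-21). Tgfb3 was higher by 0.25 and Tgfb1 lower (-0.26 ± 0.04, adjusted p = 2.67e-06). Skil, a direct target of the pathway, was higher by 0.16, and Smad7, the inhibitory target, did not pass the test (-0.06, adjusted p = 0.506), and its sign turned without AGN replicate 1. The call of Skil was lost without AGN replicate 2 (adjusted p = 0.0527).

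Hedgehog targets were lower or did not pass the test, and both conditions had received SAG. Ptch1, the receptor and a target, had 192 to 205 CPM against 188 to 189.6 (0.06 ± 0.08, adjusted p = 0.588). Gli1, the most direct target, was lower (-0.35 ± 0.07, adjusted p = 0.000105), and Hhip, a target that binds the ligands, had 11.4 to 11.7 CPM against 22.5 to 25.4 (-1.03 ± 0.10, adjusted p = 2.41e-11). The ligand Shh had 0.949, 0.479 and 1.00 CPM against 4.41, 4.43 and 4.61 (-2.47 ± 0.23, adjusted p = 6.37e-12). Of 15 genes in this list, 4 were higher and 6 lower, beside 20.4% and 19.6% of all genes.

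BMP pathway genes were lower more often than higher (12 and 5 of 22, with 3 higher without AGN replicate 1). Of all genes 19.6% were lower and 20.4% higher. Bmp4, a ligand, had 53.3, 57.5 and 53.4 CPM in CD1530 and 101, 103 and 96.6 in AGN (-0.88 ± 0.05, adjusted p = 2.95e-18). Grem1, an antagonist, was lower to a like extent (-1.05 ± 0.08, adjusted p = 1.23e-12), as was Nog (-1.19). The targets Id1 (-0.84 ± 0.09, adjusted p = 2.1e-10), Id3 (-0.54) and Id4 (-1.10) were lower, and Id2 was slightly higher (0.15, adjusted p = 0.0447) with overlapping libraries, a call that was lost under 8 of 15 alternatives. Gdf6, a joint-related ligand, had 1.79, 1.12 and 1.24 CPM against 0.135, 0.102 and 0.477 (2.65 ± 0.47, adjusted p = 1.47e-05).

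Of 24 FGF pathway genes, 7 were higher (4 without CD1530 replicate 2) and 7 lower, beside 20.4% and 19.6% of all genes. Etv5, an ETS factor induced by ERK signaling, had 144, 143 and 145 CPM against 261, 252 and 244 (-0.81 ± 0.04, adjusted p = 5.97e-22). Dusp6, a phosphatase that shuts off ERK, had 305, 304 and 305 CPM against 377, 389 and 376 (-0.32 ± 0.03, adjusted p = 4.67e-12). Spry2 (-0.28 ± 0.04, adjusted p = 1.01e-06), Spry4 (-0.17) and Etv4 (-0.14) were lower as well, and Spry1 did not pass (0.09, adjusted p = 0.139). Among ligands, Fgf15 was lower (-1.97) and Fgf18, a cartilage and limb ligand, higher (0.75), and the receptor Fgfr3 was higher (1.26) at 3.63 to 4.19 CPM against 1.32 to 1.84. The calls of Spry4 and Etv4 were lost without CD1530 replicate 1 (adjusted p = 0.0634 and 0.0544), and that of Etv4 also without AGN replicate 1 (0.0708).

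Wnt pathway genes were called in both directions, with 13 of 34 higher and 14 lower, against 40.0% of all genes called. Lef1, a nuclear effector and target, had 23.3, 23.5 and 24.5 CPM against 54.5, 51.0 and 51.4 (-1.14 ± 0.06, adjusted p = 4.18e-20). The feedback inhibitors Nkd1 (-1.12 ± 0.07, adjusted p = 2.58e-16) and Nkd2 (-1.15 ± 0.06, adjusted p = 1.08e-19) were lower as well. Axin2, the most used readout of the pathway, went the other way by 0.40, and Sp5, a target in the tail bud, had 2.51, 2.23 and 2.59 CPM against 0.433, 0.459 and 0.794 (2.19 ± 0.20, adjusted p = 8.52e-12). Rspo3, an amplifier of Wnt signals, was higher (0.82 ± 0.10, adjusted p = 1.26e-08), and so was the ligand Wnt8a (2.20). Wnt3a, the tail bud ligand, was read in every CD1530 library (1.68, 1.76 and 2.95 CPM) and in no AGN library, which gives at least a 53.0-fold higher level against the counting floor of 3 reads over the group.

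Most genes of the epiblast, the tissue that enters gastrulation, were lower in CD1530. Otx2, a factor of the anterior epiblast, had 3.80, 3.41 and 4.72 CPM in CD1530 and 80.0, 78.3 and 78.0 in AGN. Dnmt3b, the de novo methyltransferase that is high in epiblast, had 89.3, 84.7 and 88.7 CPM against 911, 846 and 865 (-3.32 ± 0.04, adjusted p = 7.57e-41). Pou3f1, an epiblast and neural factor, had 24.1, 23.3 and 28.2 CPM against 91.3, 83.8 and 79.2 (-1.76 ± 0.09, adjusted p = 3.45e-16). With the Nodal genes above, 10 of 15 members of this list were lower and 3 higher. Of the primitive streak and tail bud genes, 5 of 19 were lower and 4 higher, near the 19.6% and 20.4% of all genes. T (brachyury), the streak and notochord factor, had 1.79, 2.29 and 2.06 CPM against 9.45, 9.63 and 8.84 (-2.18 ± 0.12, adjusted p = 7.82e-19). Vrtn (vertnin), a gene linked to vertebral number, had 2.07, 1.76 and 2.00 CPM against 43.9, 44.7 and 47.1 (-4.54 ± 0.11, adjusted p = 1.48e-30), and Evx1 was lower too (-1.96). The presomitic marker Tbx6 was under 0.5 CPM in all 6 libraries.

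General pluripotency genes were split. Of 18, 8 were higher and 7 lower, beside 20.4% and 19.6% of all genes. Their summed level was 1945 to 1992 CPM in CD1530 and 2036 to 2071 in AGN. Pou5f1, required in naive and primed cells, had 146, 155 and 151 CPM against 256, 298 and 305 (-0.93 ± 0.05, adjusted p = 4.32e-20). Utf1 (-0.96) and Dnmt3l (-0.81), a chromatin factor and a cofactor of DNA methylation, were also lower. Nanog, a core factor of the naive state, had 137, 125 and 136 CPM against 75.1, 70.9 and 74.0 (0.85 ± 0.04, adjusted p = 3.63e-21). Sox2 (0.50 ± 0.04, adjusted p = 3.71e-13), Dppa5a (0.73), Esrrb (0.24) and Zfp42 (0.22) were higher as well. No marker of the list was at 0, so cells or transcripts of this kind were present in both conditions, and their part in the differences of other groups was not tested.

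Genes of the 2-cell-like state, a rare totipotent-like state of stem cells, were read almost only in CD1530. All 15 measured of 19 listed were called higher, and their summed level was 80.9 to 83.9 CPM in CD1530 and 0.106 to 0.611 in AGN. Low genes were already absent from the deposited table. Genes this low in AGN may be in it only through libraries where they are high, so this count is no independent support. Zscan4d had 13.7, 12.4 and 14.3 CPM in CD1530, and the AGN libraries held 1 read among them, for a ratio of 1014 with a counting interval from 181 to 40089. Tmem92 had 3.91, 3.56 and 3.30 CPM and 3 reads in AGN, a ratio of 90.4 (30.5 to 442), and Zfp352 had 1.06, 1.17 and 0.707 CPM and no read in AGN, which gives at least 24.8-fold. The intervals are 95% and cover counting error only. Zscan4 and Usp17l are families of near-identical copies, so the reads of each copy are uncertain and these genes do not count separately.

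Of the limb and craniofacial homeobox genes, 5 of 14 were higher and 4 lower, beside 20.4% and 19.6% of all genes. Among the Dlx genes, which pattern jaw, limb and bone, Dlx1 had 1.01, 0.958 and 0.825 CPM in CD1530 and 7.45, 9.12 and 9.80 in AGN (-3.21 ± 0.19, adjusted p = 1.88e-17), Dlx2 (-2.36) and Dlx5 (-1.63 ± 0.16, adjusted p = 2.31e-10) were lower, and Dlx3 was higher (2.58 ± 0.25, adjusted p = 2.55e-11). Barx1 (2.28) and Msx2 (1.52) were higher, and Prrx1, the general limb mesenchyme factor, did not pass (-0.10, adjusted p = 0.211). Regulators of irregular connective tissue and visceral mesoderm were higher in 8 of 12 and lower in 1. Wt1, of mesothelium and kidney, had 19.9, 17.1 and 19.4 CPM against 2.41, 3.06 and 2.86 (2.79 ± 0.24, adjusted p = 1.01e-10), and Osr1, of connective tissue fibroblasts, had 7.82, 7.66 and 7.25 against 2.33, 3.26 and 2.70 (1.49 ± 0.17, adjusted p = 2.47e-09). Its relative Osr2 was higher at low level (2.69), and Ebf1 was the exception (-0.55 ± 0.05, adjusted p = 1.1e-11). Of the sclerotome genes, Pax1 (-0.73 ± 0.11, adjusted p = 4e-07) and Pax9 (-0.56 ± 0.10, adjusted p = 1.54e-05), which specify it, were lower, and Meox1 was higher by 0.13, a call that was lost without CD1530 replicate 2 or AGN replicate 1 (adjusted p = 0.0569 and 0.141). In that list 5 of 15 were higher (3 without CD1530 replicate 2 or AGN replicate 1) and 6 lower.

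Markers of other cell types were called in both directions. Of 21 neural genes 10 were higher (8 by at least 2-fold) and 4 lower (1 by at least 2-fold), beside 20.4% and 19.6% of all genes. Sox1, the earliest neural plate marker, had 28.7, 31.3 and 28.4 CPM in CD1530 and 0.867, 0.917 and 0.477 in AGN (5.23 ± 0.18, adjusted p = 5.2e-26), and Pax6, of the neural tube and eye, had 10.8, 11.6 and 13.9 against 1.92, 1.73 and 1.80 (2.71 ± 0.16, adjusted p = 3.16e-18). The summed level of the neural list was nonetheless similar (709 to 760.0 CPM against 719 to 776), since Nes, an intermediate filament that is not limited to neural cells, made up most of it. Nes was itself lower in CD1530, with log2 fold changes of -0.25 to -0.17 over all fits. Dbx1 was at 0 in all 6 libraries. Of 14 endothelial and blood genes, 6 were higher and 5 lower. Endothelial Pecam1 (0.47 ± 0.05, adjusted p = 3.36e-10) and Kdr (0.49) were higher, Cdh5, the cadherin of that cell type, did not pass (0.05, adjusted p = 0.665), and the embryonic globins Hbb-y (-1.05) and Hbb-bh1 (-0.87) were lower (361 to 367 CPM summed against 323 to 344). The epithelial genes Cdh1 (-1.01 ± 0.04, adjusted p = 1.33e-23) and Epcam (-0.88 ± 0.04, adjusted p = 1.39e-21), which pluripotent and epiblast cells also express, were lower, and Tfap2c, of germ cells, trophoblast and surface ectoderm, had 58.5, 53.9 and 59.3 CPM against 15.7, 14.9 and 14.5 (1.92 ± 0.06, adjusted p = 2.58e-27). Surface ectoderm genes summed to 298 to 307 CPM against 429.9 to 432, with 2 of 6 higher (1 without CD1530 replicate 2 or AGN replicate 1) and 4 lower. The part of these cells in the results above was not tested.

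Neural crest genes were higher in 3 of 5 cases and lower in 1, endoderm genes in 3 and 3 of 12, and skeletal muscle genes in 0 and 3 of 8. Over all genes 20.4% were higher and 19.6% lower, so the endoderm counts lie near the background. Of 10 contractile genes of smooth muscle 6 were higher and 1 lower. Myh11, the specific myosin of that tissue, had 7.93, 9.90 and 10.3 CPM against 3.44, 1.78 and 2.86 (1.74 ± 0.17, adjusted p = 4.41e-11), while Acta2, which fibroblasts share, had 517 to 524 against 500.4 to 522 and did not pass (0.03, adjusted p = 0.665).

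Of 24 proliferation genes, 13 were lower and none higher, none by more than 0.33 on the log2 scale (median -0.13). Top2a had 675 to 693 CPM against 672 to 701 and Mki67 274 to 289 against 245 to 284, and neither passed the test. Of 12 cell cycle brakes and drivers, 6 were higher and 4 lower, beside 20.4% and 19.6% of all genes. Mycn, a driver of progenitor growth, had 45.5, 46.3 and 41.9 CPM in CD1530 and 120.0, 119 and 113 in AGN (-1.40 ± 0.05, adjusted p = 1.75e-26), and Myc was lower too (-0.25). The cyclin-dependent kinase inhibitors Cdkn2b (0.95 ± 0.05, adjusted p = 4.99e-20), Cdkn2a (0.74 ± 0.07, adjusted p = 2.64e-11) and Cdkn1a (0.47 ± 0.04, adjusted p = 1.52e-11) were higher, the first with 146, 152 and 146 CPM against 77.4, 77.7 and 75.3. Another inhibitor, Cdkn1c (0.01, adjusted p = 0.885), and the cyclin Ccnd1 (0.05, adjusted p = 0.455) did not pass. Mitochondrially encoded transcripts, often read as a sign of RNA and cell quality, were lower in 6 of 13 and higher in none, and this count was 3 without CD1530 replicate 1 and 12 when the libraries of other times were not fitted.

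Several other genes had large differences with AGN above CD1530. Enpp2 (autotaxin), which makes lysophosphatidic acid, had 2.85, 2.87 and 3.01 CPM in CD1530 and 42.4, 43.3 and 40.1 in AGN. Pim2, a survival kinase, had 11.6, 11.8 and 14.2 CPM against 159.8, 164 and 157 (-3.68 ± 0.06, adjusted p = 5.76e-38). Penk, the precursor of enkephalin, had 84.8, 89.0 and 88.5 CPM against 562, 609 and 593 (-2.75 ± 0.06, adjusted p = 4.52e-26). Myb, a progenitor transcription factor, and Foxi3, a placode and pharyngeal factor, had log2 fold changes of -2.80 and -2.87. On the other side, Gbx2, a hindbrain and stem cell factor, had 15.9, 15.2 and 15.7 CPM against 0.569, 0.815 and 0.635 (4.57 ± 0.15, adjusted p = 2.13e-26), and Prtg (protogenin), a receptor of the immunoglobulin superfamily, had 143, 145 and 154 against 10.4, 8.81 and 11.6 (3.84 ± 0.07, adjusted p = 2.65e-34). Fap, a protease of activated fibroblasts, had 13.96, 14.6 and 12.9 CPM against 0.921, 1.38 and 1.80 (3.43 ± 0.16, adjusted p = 2.12e-21).

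The 2.5-day difference was set beside those at 1.5 and 4 days, where 26.9% and 46.6% of genes were called. The size of the difference changed from 1.5 to 2.5 days in 11.5% of genes and from 2.5 to 4 days in 26.8%, each by an interaction test in the same fit. Both tests use the 2.5-day libraries and are not independent. Of the 6845 genes called at 2.5 days, 3211 were called in the same direction at 1.5 days, which is 46.9% of the 2.5-day calls and 69.6% of the 1.5-day calls. At 4 days 3975 had the same direction (58.1% of the 2.5-day calls and 49.8% of the 4-day calls) and 492 the opposite one.

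The cartilage matrix difference grew across all 3 times. Of its 20 genes the log2 difference became more negative in 12 from 1.5 to 2.5 days and in 16 from 2.5 to 4 days, and more positive in none. At 1.5 days 9 of the 20 were called lower. The log2 difference of Acan was -0.26 ± 0.12 at 1.5 days, where it was not called (adjusted p = 0.101). It was -2.19 ± 0.09 at 2.5 days and -5.53 ± 0.09 at 4 days. In AGN the Acan level went from 6.49 ± 0.670 (SD, n = 3) through 29.0 ± 0.395 at 2.5 days to 215 ± 11.9 CPM at 4 days, while CD1530 had 5.44 ± 0.427 CPM at 1.5 days and 4.66 ± 0.674 at 4 days. Sox9 followed the same order with smaller steps (-0.09 ± 0.05, then -0.56 ± 0.05, then -1.05 ± 0.05), and it too was not called at 1.5 days (adjusted p = 0.197). Scx changed sign, from 0.10 ± 0.04 at 1.5 days to -0.52 ± 0.04 at 2.5 days, and was -0.51 ± 0.04 at 4 days, where the last step was 0.01 ± 0.05 (adjusted p = 0.944).

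The difference lay farther in its own direction at 2.5 days than at either neighboring time, by both interaction tests, in 2.49% of genes, 189 higher and 237 lower in CD1530. Lefty1 was 1 of these, with 1.11 ± 0.05, then 3.33 ± 0.05, then 1.12 ± 0.05 on the log2 scale, and Nodal and Lefty2 were among them too. The pluripotency genes Nanog and Dppa5a also met these tests. On the other side were the FGF-responsive genes Etv4, Etv5, Dusp6, Spry2 and Spry4, 5 of 24 genes in that list. Etv5 went from -0.28 ± 0.03 to -0.81 ± 0.04 and back to -0.33 ± 0.04, and Spry4 was higher in CD1530 at both neighbors (0.24 ± 0.05 and 0.52 ± 0.06). The Wnt genes Lef1, Nkd1 and Nkd2 were lower and Sp5 and Rspo3 higher in this way, and Mycn went from -0.80 ± 0.04 to -1.40 ± 0.05 and then -0.15 ± 0.05. Rarb was also counted here (4.66 ± 0.17, 7.49 ± 0.20 and 5.63 ± 0.14), but its CD1530 level went on rising, from 16.2 ± 0.198 through 24.9 ± 1.15 to 56.2 ± 3.57 CPM, and the AGN level was lowest at 2.5 days. Mitochondrially encoded genes, lower in CD1530 at 2.5 days where called, had 8 of 13 higher at 4 days.

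**Figure D5:**
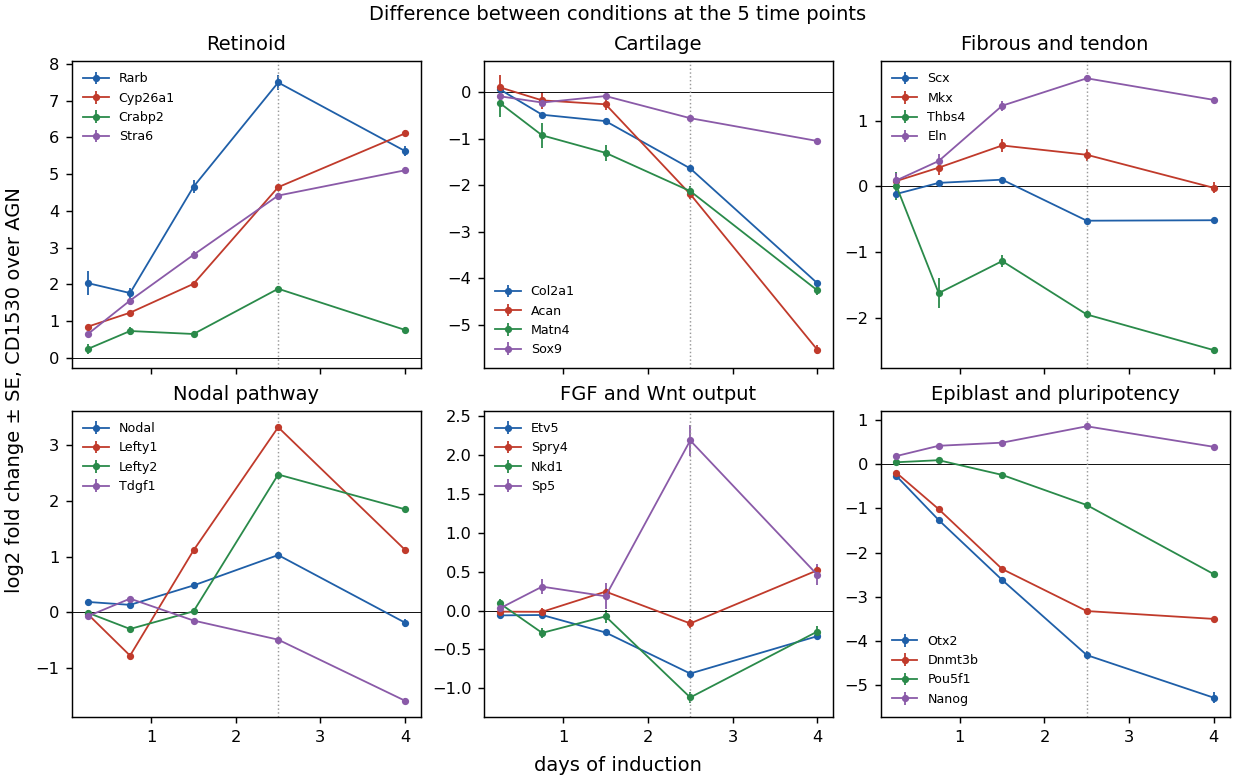
Log2 fold change of CD1530 over AGN with its SE at 0.25, 0.75, 1.5, 2.5 and 4 days of induction for 4 genes in each of 6 panels, with 2.5 days marked by the dotted line. Cartilage genes keep falling to 4 days, where Acan is at -5.53, while Lefty1 (3.33), Nkd1 (-1.12) and Sp5 (2.19) are farthest from 0 at 2.5 days.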

How the data were processed

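The authors aligned reads to GRCm38 with STAR, counted them per gene with featureCounts and deposited 1 table of raw counts, without normalization and with low genes already absent. Annotation release, strand setting and the treatment of reads with several matches are not given in the sources used here. All 33 libraries (11 groups of 3) were fitted together with edgeR 4.0.16 (R 4.3.3), by TMM, a robust quasi-likelihood fit and 1 mean a group, with Benjamini-Hochberg adjustment over all 17120 genes. The edgeR filter on low counts removed none. Genes were called at an adjusted p under 0.05, and interaction terms compared times. The code was tested on simulated data. The study's methods call the replicates biological. Which cell line or differentiation gave each one is not given in the sources used here. No pair of libraries was identical or within sampling noise.

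Levels are CPM of the deposited counts. Folds against a group without reads used a floor of 3 counts over the group, and intervals of ratios are exact at 95%. Genes were matched by identifier to GENCODE M21. Promoters came from RefSeq on GRCm38.p6. The 30 gene lists (507 genes) and the comparison were chosen with earlier results of these data known. By rule, the text names pathway genes marked in the lists, the most changed member in each direction of each list, the 15 largest changes each way with at least 50 mean counts and no overlap, without predicted genes or pseudogenes, and the 5 largest changes each way of each interaction test. A few genes that the rule names are not reported here. Other members named as examples were chosen after their values were seen. Alternatives were DESeq2 1.42.0 and its size factors, library size only, a filter at 1 CPM in 3 libraries and none, a fit that is not robust, the replicate block, AGN replicate 1 thinned, only the compared libraries, a minimum fold change, and each library left out. Figures used matplotlib 3.10.9.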

Additional observations from a re-analysis of the deposited data

Results flagged for a closer look

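The difference between CD1530 and AGN was itself compared between times, by interaction tests that share the 2.5-day libraries, and each value here was marked because that test was called. It changed in 1972 genes from 1.5 to 2.5 days, in 4591 from 2.5 to 4 days, and was farther in its own direction at 2.5 days than at both neighbors in 426. Groups of 3 libraries were not tested for outlying samples.

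From 1.5 to 2.5 days the log2 difference rose by 6.85 for Zscan4c, a gene of the 2-cell-like state without a read in AGN at 2.5 days, so that this fitted value is no bound. It rose by 3.94 for Sox1, 3.84 for Hoxb1, 2.88 for Csn3 and 2.88 for Cdx1. For Hoxb1, Csn3 and Cdx1 the AGN libraries at 2.5 days held 5, 6 and 6 reads in all. The sizes of these 3 changes therefore rest on AGN levels near the counting floor. The change was -2.10 for Hapln1, -1.93 for Acan, -1.96 for Vrtn, -1.77 for Fgf5, an epiblast ligand, and -1.70 for Otx2.

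From 2.5 to 4 days it rose by 2.62 for Slc26a7, an anion transporter, by 2.47 for Rhox1 and 2.43 for Dazl, a homeobox gene and an RNA-binding protein of the germ line, by 2.39 for Rtn4rl2, a Nogo receptor relative, and by 2.34 for Cntn2, a neural adhesion protein. The change was -3.53 for Hapln1, -3.34 for Acan, -3.36 for Susd5, a hyaluronan-binding protein, -3.55 for T and -3.17 for Wnt8a. The call of Cntn2 at 2.5 days was lost without CD1530 replicate 2 or AGN replicate 1 (adjusted p = 0.0511 and 0.126).

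Among the genes farthest in their direction at 2.5 days, the log2 difference of those higher in CD1530 was smaller at 4 days, with changes of -1.86 for Rarb, -1.32 for Prtg, -1.18 for Fap and -0.82 for Ccdc88b, a microtubule-binding protein. For those lower in CD1530 the difference moved toward 0, by 2.12 for Enpp2, 1.70 for Zp3, an egg coat protein, 1.00 for Car14, a carbonic anhydrase, 0.81 for Krt17, a keratin, and 0.61 for Map7d3, another microtubule-binding protein. These are changes of the difference and not of a level, since the Fap level in CD1530 was higher at 4 days (37.7 ± 0.432 CPM, mean ± SD, n = 3) than at 2.5 days.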

How the results depend on the processing

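Leaving out single libraries gave 5909 to 6376 called genes in place of 6845, and a minimum absolute log2 fold change of 1 gave 1292. Without TMM, by library size alone, 3954 genes were higher and 2775 lower (58.8% higher, against 51%), with the median of all genes shifted to 0.03. With the replicate number as a replicate block 6789 genes were called, but the numbers do not pair the samples, since deviations of same-numbered libraries had correlations across genes of -0.03, -0.0022 and -0.0031 and no CD1530 library correlated best with its own number. Signs turned for Smad7 (0.0556 without AGN replicate 1, and -0.120 to 0.0556 over the libraries left out), Cdkn1c, a cell cycle inhibitor (-0.0148 without CD1530 replicate 2, -0.114 without AGN replicate 1, range -0.114 to 0.0917), Top2a (0.0154 by library size alone) and Dbx1, which had no reads (0.0334 with the replicate block). None of these 4 was called under these settings, and the cause was not tested. Counts of called members moved by more than 1.5 times in 7 lists. Lower Hox genes went from 4 to 2 without CD1530 replicate 1, CD1530 replicate 2, AGN replicate 1 or AGN replicate 2. Higher sclerotome genes went from 5 to 3 without CD1530 replicate 2 or AGN replicate 1, higher BMP genes from 5 to 3 without AGN replicate 1, higher FGF genes from 7 to 4 without CD1530 replicate 2, and higher surface ectoderm genes from 2 to 1 without CD1530 replicate 2 or AGN replicate 1 or with the latter thinned. Lower mitochondrially encoded genes went from 6 to 3 without CD1530 replicate 1 or 2, to 10 in a fit that is not robust and to 12 with only the compared libraries. Lower receptors and coregulators went from 1 to 2 under 5 alternatives. Medians of lists moved in 43 combinations of list and alternative and stayed in 407. A move was a shift of at least the replicate SD of the list's median log2 level. AGN replicate 1, the deepest library, decided no direction of a called gene named here. For genes with a few reads in a condition, depth limits the fold change to a bound or a wide interval. With 3 libraries a condition an exact permutation test cannot go below 0.1, so the p-values rest on the spread shared across genes and groups.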
